A study of Mus musculus with 6 samples.

Results

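The 10 genes described here encode autotaxin (Enpp2), receptors for lysophosphatidic acid (LPA; Lpar1, Lpar2, Lpar4 and Lpar6), receptors for sphingosine 1-phosphate (S1P; S1pr1, S1pr2 and S1pr3), the S1P-making kinase Sphk1 and the S1P exporter Spns2. They were chosen from the known genes of these pathways by their levels in the same 6 libraries, out of 30055 gene symbols, so their own changes, which come from the fit of all genes, are given as a description and nothing is read from a test of them. Messenger RNA was sequenced from cultured lung endothelial cells of Ch25h-null mice, C57BL6 strain, labelled female and 3 weeks old. Ch25h encodes cholesterol 25-hydroxylase, and its loss was shared by all groups. The cells received tumour-derived extracellular vesicles plus reserpine (TEV plus reserpine), the vesicles alone (TEV) or vehicle, which the series text gives as PBS, with 2 libraries in each group. The vesicles came from MC38, a mouse colorectal tumour cell line, and their dose was 20 µg per ml over 12 h. The drug reserpine, a blocker of the vesicular monoamine transporters, was given at 10 µM for 8 h beforehand. The series text can be read as giving reserpine to every group, whereas the sample titles name it for 1 group, and the titles were followed. No group with reserpine alone was analysed here. No source used here tells whether the libraries of a group came from separate cultures or animals, so SDs and p-values measure the spread between these libraries, which may be technical.

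LPA and S1P are signalling lipids that act outside the cell through G protein-coupled receptors. Autotaxin is a secreted enzyme that makes LPA from lysophosphatidylcholine, and its product acts on receptors of separate families. Lpar1 and Lpar2 belong to the EDG family, which also holds the S1P receptors, and Lpar4 and Lpar6 are related to purine receptors. S1P is made inside the cell by sphingosine kinases and released from endothelium by Spns2. In vessels the S1pr1 receptor signals through Gi and is known for keeping the endothelial barrier tight, while S1pr2 and S1pr3 also couple to other G proteins. Serum, which was part of the culture medium, carries both lipids.

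Library totals ranged from 22270657 to 81225627 estimated counts. All levels below are in CPM, a gene's count scaled to a common library size, here after TMM scaling, and a count of 3 equalled 0.0382 to 0.134 CPM. All 12 endothelial markers on the list had counts in every group. Their summed level was 9946 to 10159 CPM with TEV plus reserpine, 10210 to 10406 CPM with TEV and 5007 to 5056 CPM with vehicle. Emcn, Eng and Pecam1 made up most of the difference in this sum between TEV and vehicle. Emcn averaged 1889 CPM with TEV plus reserpine, 2582 CPM with TEV and 360 CPM with vehicle. In that order, Eng averaged 1122, 1909 and 491 CPM, and Pecam1 1759, 1977 and 741 CPM. Cdh5, the most abundant marker, averaged 2821, 2257 and 1749 CPM. The single markers did not all follow the sum. With TEV against vehicle, edgeR called 8 of the 12 higher and 3 lower, beside 25.1% and 24.6% of the 15035 genes tested. Those 3, named after their values were seen, were Kdr, the main VEGF receptor, Cldn5, a tight junction protein, and Tek, the angiopoietin receptor. Kdr averaged 479 CPM with TEV plus reserpine, 85.3 CPM with TEV and 325 CPM with vehicle, and Cldn5 averaged 165 CPM with TEV plus reserpine, 28.8 CPM with TEV and 221 CPM with vehicle. Tek averaged 168 CPM with TEV plus reserpine, 84.1 CPM with TEV and 104 CPM with vehicle. The 10 fibroblast markers summed to 79.8 to 97.5 CPM with TEV plus reserpine, 55.4 to 65.0 CPM with TEV and 2847 to 3278 CPM with vehicle. Among these, Col1a2, the most abundant, averaged 2.63 CPM with TEV plus reserpine, 1.73 CPM with TEV and 1358 CPM with vehicle. Tcf21 had no count in either vesicle group, and Lum and Dpt had none with TEV plus reserpine. All 9 tested fibroblast markers were called lower with TEV against vehicle, beside 24.6% of all genes. With TEV plus reserpine against vehicle 8 were, beside 19.9%. Dcn averaged 25.9 CPM with TEV plus reserpine, 14.2 CPM with TEV and 31.1 CPM with vehicle. The 10 pericyte and smooth muscle markers summed to 865 to 942 CPM with TEV plus reserpine, 783 to 893 CPM with TEV and 2015 to 2039 CPM with vehicle, and Cspg4 had no count in either vesicle group. Most of the vehicle sum was Acta2 and Tagln, at 963 and 835 CPM. Tagln averaged 689 CPM with TEV plus reserpine and 684 CPM with TEV. All 10 were called lower with TEV against vehicle, and 8 with TEV plus reserpine against vehicle. Notch3 averaged 21.1 CPM with TEV plus reserpine, 4.64 CPM with TEV and 23.5 CPM with vehicle, and Kcnj8 3.05, 0.442 and 1.81 CPM. The 7 lymphatic endothelial markers summed to 1343 to 1349 CPM with TEV plus reserpine, 1231 CPM with TEV and 1697 to 1708 CPM with vehicle. Of these, 0 were called higher and 5 lower with TEV against vehicle, beside 25.1% and 24.6% of all genes. With TEV plus reserpine against TEV, 3 were higher and 3 lower, beside 15.7% and 16%. Reln averaged 48.7 CPM with TEV plus reserpine, 121 CPM with TEV and 320 CPM with vehicle. Mmrn1 averaged 111, 39.5 and 125 CPM in that order, and Ccl21a had no count with TEV. The 10 macrophage and leukocyte markers summed to 29.6 to 30.6 CPM with TEV plus reserpine, 22.6 to 23.0 CPM with TEV and 48.8 to 65.9 CPM with vehicle. Of the 8 tested, 1 was called higher and 3 lower with TEV against vehicle, and 4 were not called. Lyz2 averaged 4.79 CPM with TEV plus reserpine, 4.01 CPM with TEV and 26.8 CPM with vehicle. Cd68 ran the other way, at 8.97, 5.80 and 3.22 CPM in that order, and Csf1r stood at 2.57, 3.31 and 2.65 CPM. The 10 epithelial and colon tumour markers summed to 52.5 to 58.7 CPM with TEV plus reserpine, 63.7 to 65.3 CPM with TEV and 17.3 to 17.7 CPM with vehicle. Most of that sum was Krt18 and Krt19, at 31.4 and 28.3 CPM with TEV, while Epcam, Cdx1 and Cdx2 averaged at most 0.125 CPM in any group. Krt8 averaged 0.461 CPM with TEV plus reserpine, 0.182 CPM with TEV and 0.801 CPM with vehicle. Cldn4 averaged 0.190, 3.61 and 0.592 CPM in that order. Of the 6 tested, 3 were called higher and 1 lower with TEV against vehicle, beside 25.1% and 24.6% of all genes. In bulk libraries, fewer cells of a type and less RNA per cell cannot be told apart.

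**Figure D1:**
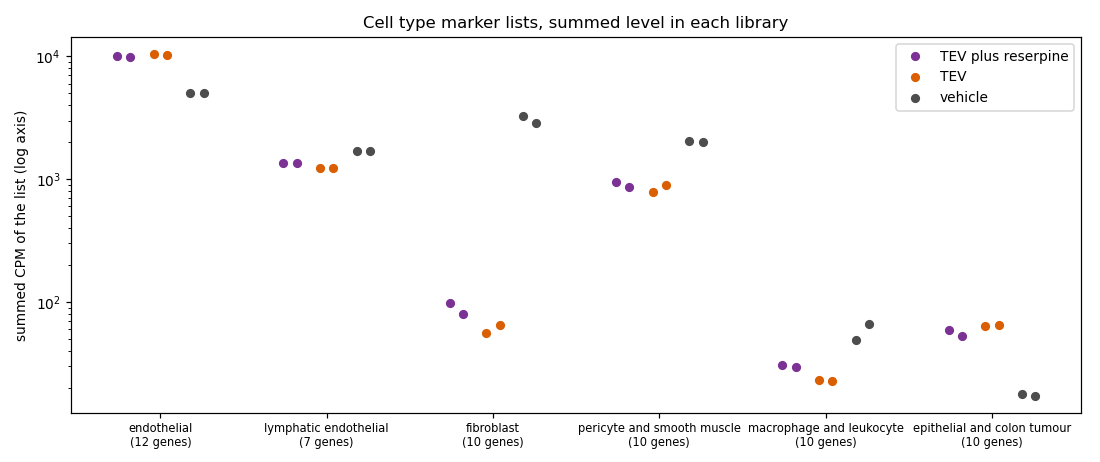
Summed CPM (log axis) of 6 lists of cell type markers in each library, with TEV plus reserpine, TEV and vehicle side by side. Endothelial sums were higher in both vesicle groups than in vehicle, although 3 of the 12 markers were lower with TEV, and fibroblast sums were lower, at 55.4 to 97.5 CPM in the 4 vesicle libraries and 2847 to 3278 CPM with vehicle.

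The promoter windows of Spns2, S1pr2 and S1pr3 are shown because these are the S1P genes among the 10 with a single window in the RefSeq table for GRCm38.p6, and they moved in opposite directions with vesicles. A window runs from 250 bases before to 50 bases after the annotated start, on the gene's strand. Of the 10 genes, 8 matched the table, and Enpp2 and S1pr1 did not. Capitals mark matches to the motifs searched on both strands.
Spns2 (chr11:72474978-72475277, minus strand): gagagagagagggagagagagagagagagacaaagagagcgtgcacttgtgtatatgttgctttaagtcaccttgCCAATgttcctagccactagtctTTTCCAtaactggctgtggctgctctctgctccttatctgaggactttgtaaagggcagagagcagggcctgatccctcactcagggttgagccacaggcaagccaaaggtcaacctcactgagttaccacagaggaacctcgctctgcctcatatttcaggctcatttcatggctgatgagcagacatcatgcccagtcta
S1pr2 (chr9:20976744-20977043, minus strand): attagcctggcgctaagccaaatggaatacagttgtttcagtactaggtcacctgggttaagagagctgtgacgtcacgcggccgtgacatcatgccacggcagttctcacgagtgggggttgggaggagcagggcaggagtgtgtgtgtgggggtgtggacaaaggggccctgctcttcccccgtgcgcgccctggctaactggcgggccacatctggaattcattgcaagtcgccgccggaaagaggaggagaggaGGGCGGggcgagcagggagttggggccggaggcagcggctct
S1pr3 (chr13:51408368-51408667, plus strand): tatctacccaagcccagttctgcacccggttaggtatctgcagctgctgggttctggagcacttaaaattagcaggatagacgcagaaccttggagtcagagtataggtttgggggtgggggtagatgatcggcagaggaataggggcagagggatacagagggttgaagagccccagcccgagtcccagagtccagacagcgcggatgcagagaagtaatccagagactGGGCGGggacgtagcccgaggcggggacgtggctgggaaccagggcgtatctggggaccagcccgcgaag

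The motifs were the TATA box (TATAAA), the CCAAT box (CCAAT), the GC box (GGGCGG), an AP-1 site (TGANTCA), the NFAT core (TGGAAA) and a heat shock element (GAANNTTC), none of which overlapped another in these 3 windows. S1pr2 and S1pr3 each held 1 GC box, starting at base 9 after the start in S1pr2 and at base -20 in S1pr3, and 35.7% of the 32851 windows in the table hold one. The Spns2 window held no GC box. It had a CCAAT box at base -175, a motif present in 37.4% of windows, and, on the opposite strand, an NFAT core at base -152, present in 21.4%. Of the LPA receptors with a single window, Lpar4 held 1 match to the TATA box, on the opposite strand at base -203. It also held 4 CCAAT boxes and 1 GC box, at base -67, which overlapped the CCAAT match at base -70. Lpar6 held 0 of these motifs. The 3 windows shown also differed in base composition. CpG pairs numbered 2 in Spns2, 18 in S1pr2 and 14 in S1pr3, against a median of 7 over all windows, and G or C made up 50.3%, 62.0% and 59.0% of bases, against a median of 52.7%.

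Enpp2, the autotaxin gene, was the member with the largest fold difference between group means, that of TEV over vehicle. It stood at 9.11 and 10.0 CPM with TEV plus reserpine, at 66.8 and 56.5 CPM with TEV, and at 0.999 and 1.43 CPM with vehicle. The 3 groups did not overlap, and the gap between any pair of groups was at least 4.49 times the wider of their within-group ranges. TEV against vehicle gave a log2 change of 5.69 ± 0.20 (SE), a 51.8-fold higher level. TEV plus reserpine against TEV gave -2.68 ± 0.16, and TEV plus reserpine against vehicle gave 3.01 ± 0.20. With reserpine, Enpp2 thus lay between the other groups, 8.07-fold above vehicle.

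The 5 genes nearest to Enpp2 by Euclidean distance of centred log2 CPM over the 6 libraries, among 10430 genes averaging at least 5 CPM, were Tlr13, Grik1, Pkd1l1, Aloxe3 and 2310030G06Rik. Tlr13, which encodes a sensor of bacterial ribosomal RNA, was nearest at a distance of 0.828, with 5.99 and 6.72 CPM with TEV plus reserpine, 71.9 and 51.6 CPM with TEV, and 1.44 and 1.08 CPM with vehicle. Aloxe3, an epidermal lipoxygenase gene, had 10.9 and 10.4 CPM with TEV plus reserpine, 47.8 and 36.7 CPM with TEV, and 2.42 and 1.39 CPM with vehicle. Grik1, a glutamate receptor subunit gene, and 2310030G06Rik had no count in either vehicle library.

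**Figure D2:**
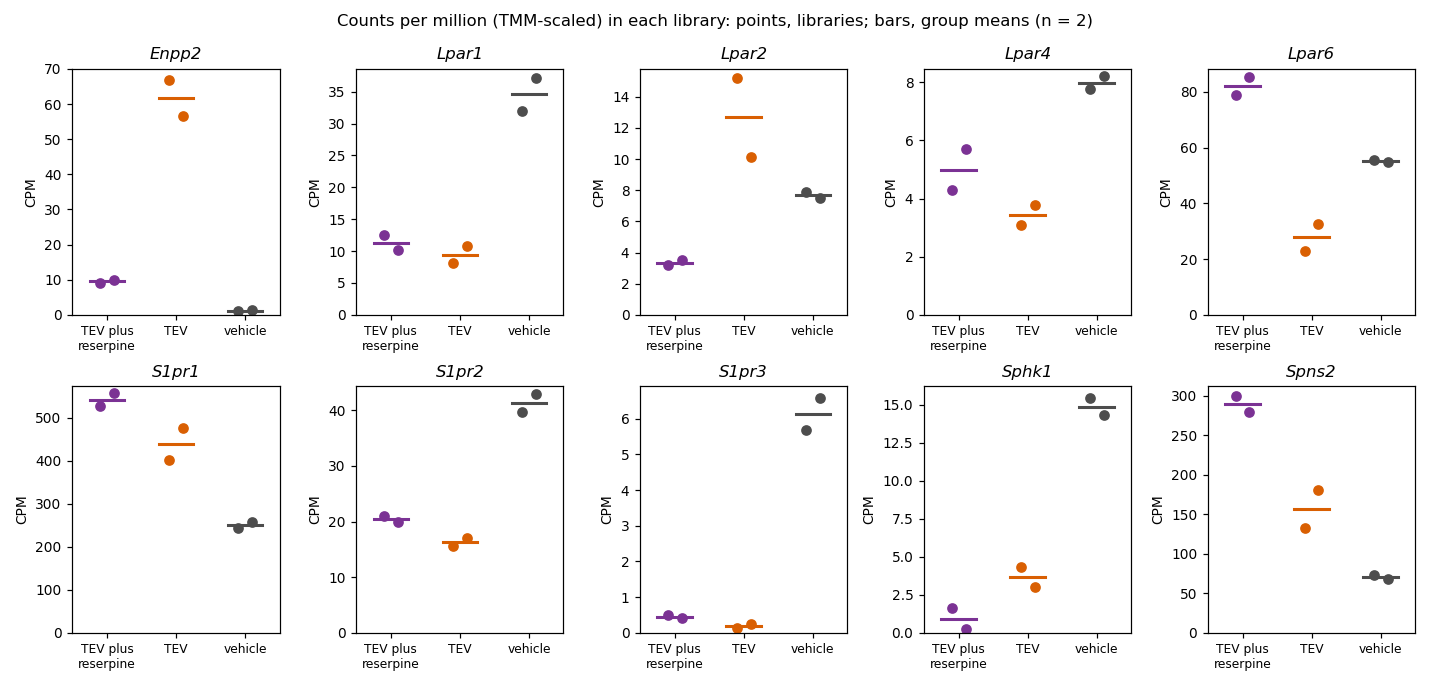
CPM (TMM-scaled, axes from 0) of each of the 10 genes in the TEV plus reserpine, TEV and vehicle libraries. Points are libraries and bars are means of 2. Enpp2 peaked with TEV, S1pr1 and Spns2 were highest with TEV plus reserpine, and Lpar1, Lpar4, S1pr2, S1pr3 and Sphk1 were highest with vehicle.

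Among the LPA receptors, Lpar1 and Lpar4 were lower in both vesicle groups than in vehicle, while Lpar2 and Lpar6 moved in opposite directions to each other. Lpar1, the most widely expressed LPA receptor and one that couples to several G proteins, had 12.5 and 10.2 CPM with TEV plus reserpine, 8.13 and 10.7 CPM with TEV, and 32.0 and 37.2 CPM with vehicle. Both vesicle groups overlapped each other and lay below vehicle. The log2 changes were -1.87 ± 0.18 (SE) for TEV against vehicle, 0.25 ± 0.18 for TEV plus reserpine against TEV, and -1.61 ± 0.18 for TEV plus reserpine against vehicle. Lpar4, one of the receptors related to the purine receptors, had 4.29 and 5.71 CPM with TEV plus reserpine, 3.08 and 3.77 CPM with TEV, and 7.76 and 8.22 CPM with vehicle. Its 2 vesicle groups were 0.365 times the wider within-group range apart, so their order is within the spread of the libraries. Its log2 changes were -1.21 ± 0.22 for TEV against vehicle, 0.55 ± 0.22 for TEV plus reserpine against TEV, and -0.67 ± 0.22 for TEV plus reserpine against vehicle.

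Lpar2, from the same family as Lpar1, had 3.17 and 3.53 CPM with TEV plus reserpine, 15.2 and 10.1 CPM with TEV, and 7.90 and 7.52 CPM with vehicle. The groups did not overlap and the lowest values were those with reserpine, but the 2 TEV libraries differed by more than the gap between TEV and vehicle. The log2 changes were 0.71 ± 0.22 for TEV against vehicle, -1.91 ± 0.23 for TEV plus reserpine against TEV, and -1.20 ± 0.23 for TEV plus reserpine against vehicle. Lpar6, the other receptor related to the purine receptors, had 79.0 and 85.2 CPM with TEV plus reserpine, 23.0 and 32.6 CPM with TEV, and 55.6 and 54.7 CPM with vehicle. It was the reverse of Lpar2, lowest with TEV and highest with TEV plus reserpine, with no overlap of groups. Its log2 changes were -0.98 ± 0.16 for TEV against vehicle, 1.55 ± 0.16 for TEV plus reserpine against TEV, and 0.57 ± 0.16 for TEV plus reserpine against vehicle.

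The S1P receptors divided, with S1pr1 higher and S1pr2 and S1pr3 lower in both vesicle groups than in vehicle. S1pr1, the main S1P receptor of endothelium, had 528 and 557 CPM with TEV plus reserpine, 402 and 476 CPM with TEV, and 243 and 257 CPM with vehicle. No groups overlapped, though the gap between the 2 vesicle groups was 0.696 times the wider within-group range. The log2 changes were 0.81 ± 0.10 (SE) for TEV against vehicle, 0.31 ± 0.10 for TEV plus reserpine against TEV, and 1.12 ± 0.10 for TEV plus reserpine against vehicle. S1pr2 had 21.0 and 20.0 CPM with TEV plus reserpine, 15.6 and 17.0 CPM with TEV, and 39.7 and 42.9 CPM with vehicle. All 4 vesicle libraries were below both vehicle libraries. Its log2 changes were -1.34 ± 0.11 for TEV against vehicle, 0.33 ± 0.11 for TEV plus reserpine against TEV, and -1.01 ± 0.11 for TEV plus reserpine against vehicle.

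S1pr3 was close to absent in the vesicle groups, with 0.491 and 0.402 CPM with TEV plus reserpine, 0.139 and 0.255 CPM with TEV, and 5.69 and 6.58 CPM with vehicle. Behind these lay 10.9 and 13.9 estimated counts with TEV plus reserpine, 4.96 and 19.9 with TEV, and 245 and 189 with vehicle, so the levels in the vesicle groups rest on few reads. The log2 changes were -4.87 ± 0.37 (SE) for TEV against vehicle, 1.08 ± 0.39 for TEV plus reserpine against TEV, and -3.78 ± 0.36 for TEV plus reserpine against vehicle. The lower levels of S1pr3, S1pr2, Lpar1, Lpar4 and Sphk1 in both vesicle groups went with the lower fibroblast and pericyte marker sums given above. Of those markers, Notch3 averaged near vehicle and Kcnj8 above it with TEV plus reserpine. Against vehicle, the higher levels of S1pr1 and Spns2 went with the higher endothelial sum. In that sum Kdr, Cldn5 and Tek ran the other way with TEV. Between the vesicle groups, S1pr1 averaged 542 CPM with TEV plus reserpine and 439 CPM with TEV, and Spns2 290 and 157 CPM. The endothelial sum was 9946 to 10159 and 10210 to 10406 CPM in that order. Sphk1 averaged 0.919 and 3.66 CPM, beside a fibroblast sum of 79.8 to 97.5 and 55.4 to 65.0 CPM. S1pr3, S1pr2, Lpar1 and Lpar4 averaged higher with TEV plus reserpine than with TEV. The part of these cell types in the 7 genes was not tested.

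Sphk1 and Spns2, which act in succession to make and export S1P, moved apart. Sphk1 had 1.61 and 0.230 CPM with TEV plus reserpine, 4.33 and 2.98 CPM with TEV, and 15.4 and 14.3 CPM with vehicle. Both vesicle groups lay below vehicle, and the 2 libraries with reserpine, at 36.5 and 7.58 estimated counts, differed from each other by slightly more than the gap to TEV. The log2 changes were -2.04 ± 0.57 (SE) for TEV against vehicle, -2.10 ± 0.67 for TEV plus reserpine against TEV, and -4.13 ± 0.68 for TEV plus reserpine against vehicle. Spns2 had 300.02 and 280 CPM with TEV plus reserpine, 133 and 181 CPM with TEV, and 73.1 and 68.0 CPM with vehicle. The 3 groups stood apart in steps, highest with reserpine. Its log2 changes were 1.15 ± 0.15 for TEV against vehicle, 0.88 ± 0.14 for TEV plus reserpine against TEV, and 2.04 ± 0.15 for TEV plus reserpine against vehicle, the last a 4.11-fold higher level.

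**Figure D3:**
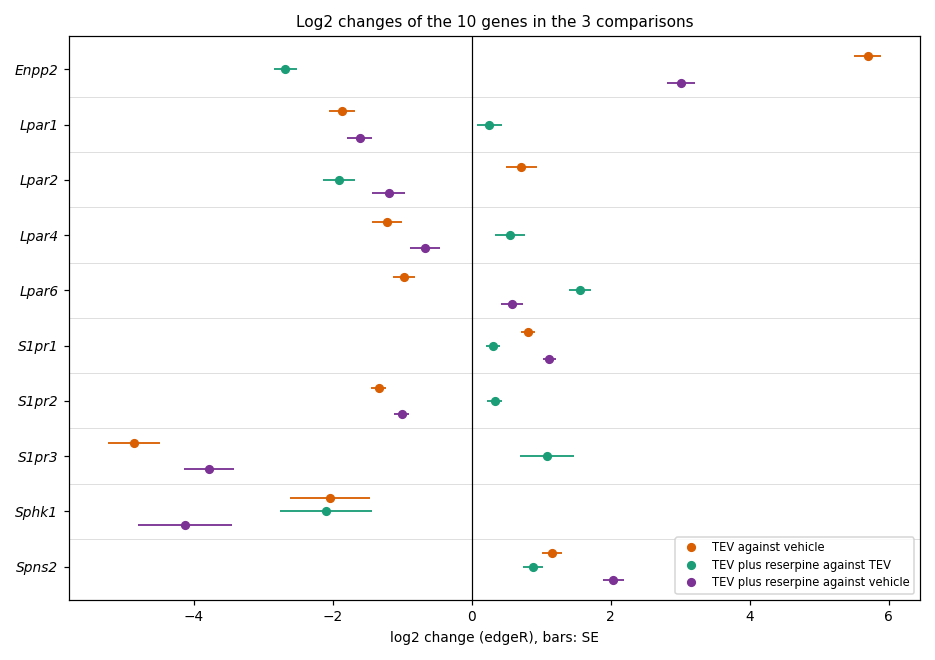
Log2 changes of the 10 genes from edgeR, with SE bars, in the comparison of TEV with vehicle and in those of TEV plus reserpine with TEV and with vehicle. Enpp2 had 5.69, -2.68 and 3.01 in that order, and Spns2 was above 0 in each comparison (1.15, 0.88 and 2.04).

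Counted over the members, all 10 passed the filter on low counts. In TEV against vehicle, 4 were past the threshold on the higher side and 6 on the lower (edgeR's quasi-likelihood test, adjusted p under 0.05 over all genes), where 25.1% of the 15035 genes tested were called higher and 24.6% lower. Of the changes between TEV plus reserpine and TEV, 2 were past it on the higher side (Lpar6 and Spns2) and 2 on the lower (Enpp2 and Lpar2), where 15.7% of all genes were called higher and 16% lower. Between TEV plus reserpine and vehicle, 4 were past it on the higher side and 6 on the lower, where 19.1% of all genes were called higher and 19.9% lower. Since the members were chosen on these contrasts, nothing is read from these counts. The median log2 change of the members was -1.10, 0.32 and -0.84 in these comparisons, beside 0.01, 0.00 and -0.02 over all genes. With scaling by library size alone, the counts in TEV plus reserpine against TEV were 4 higher and 2 lower. The comparisons share libraries, the TEV ones between the first 2 and the vehicle ones between the first and the last, so their values are not independent of each other.

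Ratios of estimated counts within a library do not depend on its scaling. The S1pr1 to S1pr2 ratio was 25.1 and 27.9 with TEV plus reserpine, 25.7 and 28.0 with TEV, and 6.104 and 5.997 with vehicle. The 2 vesicle groups overlapped, and both lay above vehicle. For Spns2 to Sphk1 the ratio was 184 and 1286 with TEV plus reserpine, 30.7 and 60.8 with TEV, and 4.74 and 4.75 with vehicle, so the groups did not overlap, although the libraries of TEV plus reserpine differed widely. Lpar6 to Lpar1 stood at 6.32 and 8.37 with TEV plus reserpine, 2.84 and 3.04 with TEV, and 1.73 and 1.47 with vehicle.

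**Figure D4:**
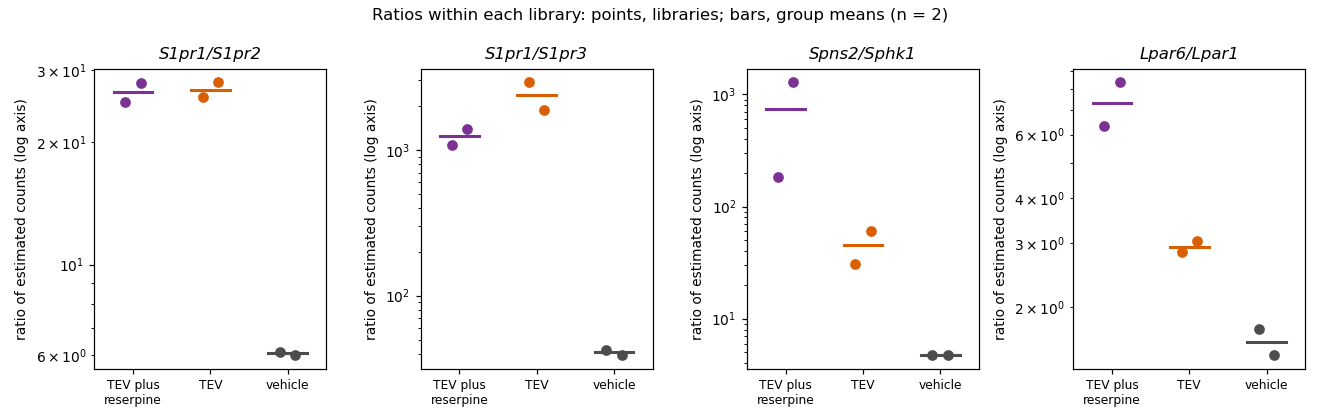
Ratios of estimated counts between pairs of the 10 genes (log axes) in TEV plus reserpine, TEV and vehicle libraries, with bars at the mean of 2. S1pr1 to S1pr2 was 25.1 to 28.0 in the 4 vesicle libraries and 5.997 to 6.104 with vehicle, while Spns2 to Sphk1 was highest with TEV plus reserpine.

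To compare levels between genes, CPM was divided by the length of the longest complete coding transcript in GENCODE M21, and the range to the shortest one is given where they differ. S1pr1 was the highest of the 10 per kilobase in each group, at 178 CPM per kb with TEV plus reserpine, 144 with TEV and 82.1 with vehicle. Spns2 came next, at 89.5 CPM per kb with TEV plus reserpine, 48.4 with TEV and 21.8 with vehicle. The gene next below Spns2 differed by group. It was Lpar6 with TEV plus reserpine (15.2 CPM per kb) and Enpp2 with TEV (19.9 to 23.1), while with vehicle Lpar6 (10.2) and Lpar1 (9.77 to 10.7) could not be ordered. Enpp2 was the lowest of the 10 with vehicle, at 0.392 to 0.455 CPM per kb, and S1pr3 the lowest with TEV plus reserpine (0.100) and TEV (0.0441). The transcripts that kallisto was given are not stated in the sources used here, so the lengths are an approximation.

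Other genes of LPA and S1P handling, which are not among the 10, were tested in the same fits. Of 95 such genes on 7 lists, 86 passed the filter on low counts. The list counts here and below stand beside the shares called over all genes. Those were 25.1% higher and 24.6% lower with TEV against vehicle, and 15.7% and 16% in TEV plus reserpine against TEV. In TEV plus reserpine against vehicle they were 19.1% and 19.9%. With TEV against vehicle, 20 of the 86 genes were called higher and 24 lower, a share close to that of all genes (16 and 30 with scaling by library size alone, which moved the median of all genes from 0.01 to -0.11). With TEV plus reserpine against TEV, 16 were higher and 11 lower (20 and 9 with scaling by library size alone), and the total of 27 became 16 without TEV replicate 1 and 17 without replicate 2 of TEV plus reserpine. With TEV plus reserpine against vehicle, 23 were higher and 22 lower (20 and 26 with that scaling). These 45 of 86 were a larger share than the 5873 of 15035 called over all genes, and no test of the lists was run. The median log2 changes of the other genes on the lists were -0.02, 0.00 and 0.07 in the 3 comparisons.

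Of the remaining receptors, only S1pr4, which is best known from leukocytes, passed the filter. It had 2.86 and 2.35 CPM with TEV plus reserpine, 3.94 and 3.77 CPM with TEV, and 3.00 and 2.05 CPM with vehicle, and its differences did not pass the test. TEV over vehicle gave 0.60 on the log2 scale with an edgeR adjusted p of 0.102, and TEV plus reserpine over TEV gave -0.57 with one of 0.152. Lpar3, Lpar5 and S1pr5 had at most 0.194 CPM in any library.

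The lipid phosphate phosphatases, which break down LPA and S1P outside the cell, moved both ways. On the list of LPA synthesis and breakdown, 2 of 9 genes were higher and 2 lower with TEV against vehicle. Plpp1 averaged 201 ± 5.45 CPM with TEV plus reserpine, 352 ± 15.6 CPM with TEV and 155 ± 3.16 CPM with vehicle (SD, n = 2 each). Plpp3 ran the other way, at 125 ± 3.01 CPM with TEV plus reserpine, 73.5 ± 5.78 CPM with TEV and 166 ± 7.57 CPM with vehicle. For Plpp1 the log2 changes were 1.19 in TEV against vehicle (edgeR adjusted p = 5.27e-05) and -0.81 in TEV plus reserpine against TEV (0.000969), and for Plpp3 they were -1.17 (edgeR adjusted p = 0.000107) and 0.76 (0.00197). Each was thus nearer to vehicle with reserpine than without. Against vehicle, Plpp1 was higher with TEV plus reserpine (0.38, edgeR adjusted p = 0.00802) and Plpp3 lower (-0.41, 0.0107), but the Plpp1 call ended without vehicle replicate 1 (0.0642) and the Plpp3 call without vehicle replicate 2 (0.0744) and without either library of TEV plus reserpine (0.0511 and 0.0586). Plpp2 rose by 0.82 in log2 units with TEV against vehicle (edgeR adjusted p = 0.000516). Pla1a, a phospholipase that releases lysophospholipids, fell by 1.35 (0.00245). Counts in TEV plus reserpine against TEV were 1 higher and 1 lower of 9, and against vehicle 2 and 2.

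Sgpl1 and Sgpp1, which remove S1P inside the cell, were lower with vesicles. Of 10 tested genes of S1P synthesis, export, transport and breakdown, none was called higher and 3 lower with TEV against vehicle by edgeR. Sgpl1, the S1P lyase, averaged 121 ± 0.624 CPM with TEV plus reserpine, 112 ± 3.28 CPM with TEV and 225 ± 12.0 CPM with vehicle (SD, n = 2 each). Its log2 change was -1.01 for TEV against vehicle (edgeR adjusted p = 0.000112) and -0.90 for TEV plus reserpine against vehicle (0.000265). Sgpp1, an S1P phosphatase, averaged 8.64 ± 0.975 CPM with TEV plus reserpine, 4.25 ± 0.951 CPM with TEV and 28.5 ± 0.787 CPM with vehicle. Its log2 changes were -2.73 for TEV against vehicle (edgeR adjusted p = 7.57e-05), 1.01 for TEV plus reserpine against TEV (0.00927, and 0.0531 without replicate 2 of TEV plus reserpine), and -1.72 for TEV plus reserpine against vehicle (0.000662). Sphk2, the other sphingosine kinase gene, had 18.2 and 15.6 CPM with TEV plus reserpine, 20.0 and 23.9 CPM with TEV, and 21.4 and 22.7 CPM with vehicle. In TEV plus reserpine against TEV, 3 of the 10 genes were higher, among them the alkaline ceramidase Acer2 (log2 change 1.02, edgeR adjusted p = 0.00589), and 0 lower. Acer2 averaged 18.0 ± 0.0197 CPM with TEV plus reserpine, 8.84 ± 1.51 CPM with TEV and 6.58 ± 0.486 CPM with vehicle. Against vehicle, 1 was higher with TEV plus reserpine and 3 lower.

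**Figure D5:**
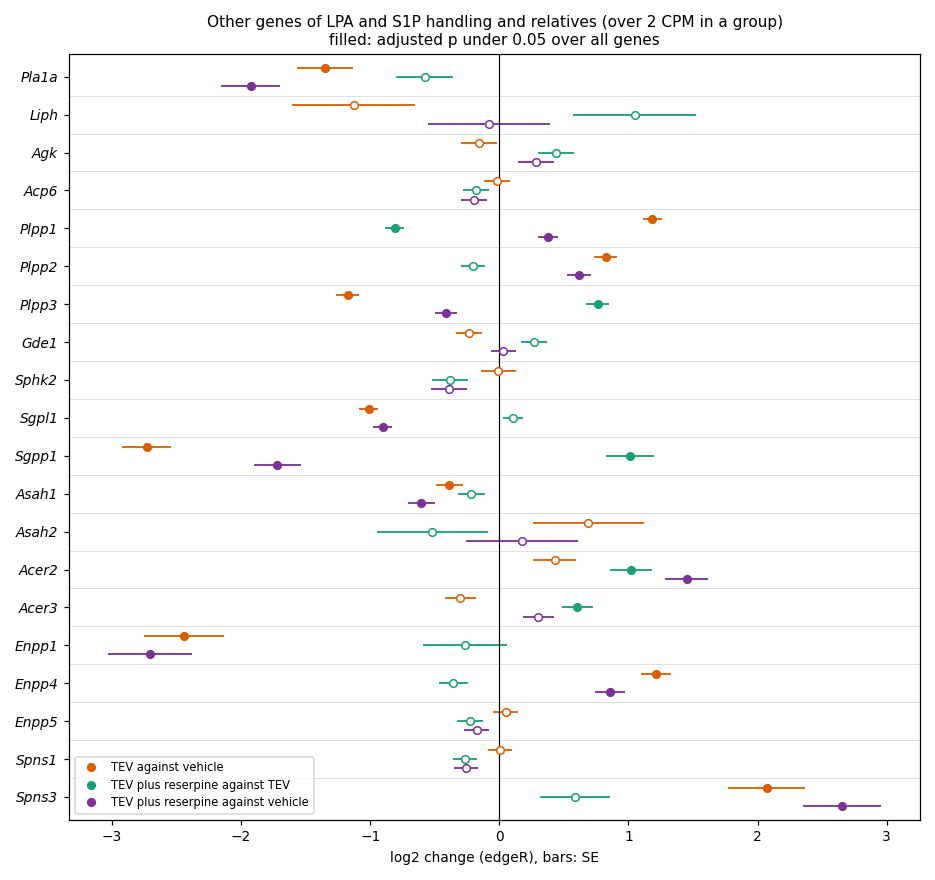
Log2 changes with SE bars of the genes of LPA and S1P handling and of relatives of Enpp2 and Spns2 that are not among the 10, for those above 2 CPM in a group. Filled points passed edgeR's adjusted p under 0.05 over all genes. Plpp1 and Plpp3 lay on opposite sides of 0 in each comparison.

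Relatives of Enpp2 and Spns2 did not all move with them. Of 7 relatives, 2 were higher and 2 lower with TEV against vehicle, 0 were called in TEV plus reserpine against TEV by edgeR, and 3 were higher and 2 lower with TEV plus reserpine against vehicle. Enpp1, which makes pyrophosphate from nucleotides, averaged 0.940 ± 0.314 CPM with TEV plus reserpine, 1.12 ± 0.106 CPM with TEV and 6.05 ± 0.971 CPM with vehicle (SD, n = 2 each; log2 change -2.44 for TEV against vehicle, edgeR adjusted p = 0.000925). Enpp4 averaged 31.2 ± 2.57 CPM with TEV plus reserpine, 39.9 ± 3.79 CPM with TEV and 17.2 ± 0.471 CPM with vehicle (1.21 for TEV against vehicle, edgeR adjusted p = 0.000294). Spns3 was low, at 4.36 ± 0.402 CPM with TEV plus reserpine, 2.89 ± 0.706 CPM with TEV and 0.685 ± 0.0823 CPM with vehicle (2.07 for TEV against vehicle, edgeR adjusted p = 0.00158). Spns1, a lysosomal relative of Spns2, had 56.5 and 52.2 CPM with TEV plus reserpine, 67.8 and 62.7 CPM with TEV, and 62.4 and 67.6 CPM with vehicle.

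Upstream of S1P, the sphingolipid synthesis list held 6 higher and 7 lower genes of 19 tested with TEV against vehicle. Smpd3, a neutral sphingomyelinase, averaged 69.2 ± 3.81 CPM with TEV plus reserpine, 69.3 ± 12.4 CPM with TEV and 14.2 ± 0.136 CPM with vehicle (SD, n = 2 each). It rose by 2.29 on the log2 scale with TEV against vehicle (edgeR adjusted p = 4.75e-05) and by 2.28 with TEV plus reserpine against vehicle (8.8e-05). Degs1, the desaturase that completes ceramide, rose by 0.92 with TEV against vehicle (edgeR adjusted p = 0.000172), and Ugcg, which makes glucosylceramide, fell by 0.90 (0.000569). Sgms2, a sphingomyelin synthase, averaged 42.3 ± 1.93 CPM with TEV plus reserpine, 111 ± 14.9 CPM with TEV and 53.6 ± 6.25 CPM with vehicle (1.05 in TEV against vehicle, edgeR adjusted p = 0.000754, and -1.39 in TEV plus reserpine against TEV, 0.000995). Cers6, a ceramide synthase, averaged 70.2 ± 3.08 CPM with TEV plus reserpine, 42.3 ± 5.38 CPM with TEV and 80.3 ± 0.797 CPM with vehicle (-0.92 in TEV against vehicle, edgeR adjusted p = 0.000632, and 0.73 in TEV plus reserpine against TEV, 0.00448). Counts were 4 higher and 4 lower in TEV plus reserpine against TEV, and 5 and 4 in TEV plus reserpine against vehicle.

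Of 24 genes on the list of G protein coupling of these receptors and its regulators, 5 were higher and 5 lower with TEV against vehicle, 5 and 4 in TEV plus reserpine against TEV, and 6 and 4 in TEV plus reserpine against vehicle. Rgs2, an inhibitor of Gq signalling, averaged 9.15 ± 0.373 CPM with TEV plus reserpine, 2.94 ± 0.581 CPM with TEV and 14.9 ± 1.52 CPM with vehicle (SD, n = 2 each; log2 change -2.33 for TEV against vehicle, edgeR adjusted p = 0.000151). Rgs5, also on the pericyte list, fell by 3.83 with TEV against vehicle (edgeR adjusted p = 0.000245), while Rgs16 rose by 1.32 (0.00535) and Arhgef1 by 0.63 (0.00438).

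Genes that respond to YAP or SRF, transcription regulators known to be activated by LPA and S1P, gave 5 higher and 5 lower of 16 with TEV against vehicle, 3 and 2 in TEV plus reserpine against TEV, and 6 and 7 in TEV plus reserpine against vehicle. Over all genes, 25.1% were called higher and 24.6% lower in the first of these comparisons, 15.7% and 16% in the next, and 19.1% and 19.9% in the last. Ccn1 averaged 709 ± 23.2 CPM with TEV plus reserpine, 549 ± 102 CPM with TEV and 366 ± 2.99 CPM with vehicle (SD, n = 2 each; 0.58 for TEV against vehicle, edgeR adjusted p = 0.00795). Fos, an immediate early gene, rose by 1.58 in log2 units (edgeR adjusted p = 0.000519) and Ajuba by 1.02 (0.00156) with TEV against vehicle. Of the 5 lower genes with TEV, the 3 with the largest falls were genes of contraction, Acta2 (-2.88, edgeR adjusted p = 1.78e-05), Myl9 (-1.52, 5.54e-05) and Cnn1 (-1.05, 0.00225). Tagln, another such gene, had a smaller change (-0.29, edgeR adjusted p = 0.0263). Acta2, Cnn1 and Tagln are also on the pericyte and smooth muscle list, whose sum was lower in the same libraries. Acta2, at 131 CPM with TEV and 963 CPM with vehicle, made up most of that difference, so the sum is not independent of it. The part of these cell types in the values was not tested. Egr1 rose by 1.05 with TEV plus reserpine against TEV (edgeR adjusted p = 0.000594) and Ccn2 by 0.52 (0.00675), and Lats2 fell by 0.58 (0.00498). Egr1, lower with TEV than with vehicle (-0.96, edgeR adjusted p = 0.000145), was thus near vehicle with reserpine. It averaged 93.8 CPM with TEV plus reserpine, 45.2 CPM with TEV and 88.0 CPM with vehicle.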

How the data were processed

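RNA was sequenced in 6 libraries, 2 for each of TEV plus reserpine, TEV and vehicle. Per the labels' protocols, Trizol was used for extraction, libraries were TruSeq mRNA and reads were 75 bp single-end. No source used here gives the strand, so overlapping and antisense genes cannot be told apart. Per the submitters' processing notes, kallisto 0.45.0, R 4.0.0, edgeR and limma were used; the notes name a human build, while the symbols are those of mouse genes. The authors deposited 2 tables of estimated counts, of which 61.2% are not whole; the one described as filtered and normalized holds 13098 symbols with the same values as the raw one, all 10 members among them. Only the raw table was analysed. Estimated counts were rounded, filtered with filterByExpr to 15035 genes, scaled with TMM and fitted with edgeR (glmQLFit, glmQLFTest) over all 6 libraries together (3 residual degrees of freedom), with Benjamini-Hochberg adjustment over all genes in each comparison. SEs are the log2 change divided by the root of the F statistic.

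Library totals ranged from 22270657 to 81225627. Replicates differed by more than sampling noise (mean chi-square per gene 19.5 to 43.3). Fits were run in R 4.3.3 with edgeR 4.0.16; alternatives used DESeq2 1.42.0 and limma 3.58.1. The code was run on simulated data in which few genes changed and all genes had the same set spread. Those settings differ from these data, so that run does not measure the error of the calls here. The alternatives were DESeq2, library size alone, no filter, limma-voom, only the 2 groups compared, a replicate block, thinning to the shallowest library and leaving out each library. The members and lists were chosen with earlier results of these data known. The named genes were all 10 members, any gene of 4 short lists, up to 3 called genes in each direction of 3 longer lists, and the 5 nearest to Enpp2 (pseudocount 0.5 CPM); which permitted genes were named was decided after their values were seen, with preference for calls that held when each library was left out. Genes listed under older symbols were matched, 8 in all.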

Additional observations from a re-analysis of the deposited data

How the results depend on the processing

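No member changed direction under any alternative, nor did any other gene in the comparisons for which its single-gene results were kept. Those were kept for selected pathway genes. They were not kept for marker genes outside the pathway lists or for the genes nearest to Enpp2. The counts of members past the threshold were 8 to 10 in both comparisons with vehicle and 4 to 7 in TEV plus reserpine against TEV, where DESeq2 gave 7 in place of 4. Leaving out a library gave 4 to 6 there. The members that crossed the threshold under some alternative were Lpar2 and Sphk1 in TEV against vehicle, Lpar4 and Lpar6 in TEV plus reserpine against vehicle, and S1pr1, S1pr2, S1pr3 and Sphk1 in TEV plus reserpine against TEV, and nothing is read from these crossings. Without 1 library, the genes called in TEV plus reserpine against TEV numbered 2124 to 4315 over all genes, in place of 4757 (2124 without TEV replicate 1, and 2581 and 2560 without replicates 1 and 2 of TEV plus reserpine), and 16 to 28 of the other pathway genes, in place of 27. In TEV plus reserpine against vehicle they numbered 3572 to 4264, in place of 5873, the lowest without vehicle replicate 1. With unscaled library sizes, TEV against vehicle had 2968 higher and 4497 lower genes. Replicates with the same number in their titles did not deviate together (correlations of -0.08 to 0.02 across genes). The sample descriptions number the vehicle libraries 1 and 2 and those of both vesicle groups 2 and 3, and that numbering was not used. With 2 libraries a group, these correlations cannot tell whether same-numbered libraries shared a culture or animal. A replicate block by title number gave 41, 26 and 41 other pathway genes and 10, 5 and 10 members in the 3 comparisons, in place of 44, 27 and 45, and 10, 4 and 10. Depth limits S1pr3 and Sphk1 most, at 7.58 to 36.5 estimated counts in the libraries with reserpine. S1pr3 was as sparse with TEV alone, at 4.96 and 19.9 estimated counts.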
